A study of Saccharomyces cerevisiae with 18 samples.

Results

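The comparison described here is that of LoaOOH-treated C404A mutant cells with LoaOOH-treated wild type cells of the budding yeast Saccharomyces cerevisiae. It rests on 6 of the 18 arrays of the series, the 3 labelled as the C404A mutant with LoaOOH and the 3 labelled as SWI6 wild type with LoaOOH. LoaOOH is linoleic acid hydroperoxide, a product of lipid peroxidation that stresses cells oxidatively. The C404A strain carries SWI6 with a cysteine codon replaced by one for alanine, the wild type strain carries unchanged SWI6, and a deletant lacks the gene. Each genotype was also sampled as an untreated control, and all 6 groups hold 3 arrays. Per the labels' protocols, cultures of all 3 genotypes grew in 200 ml of medium without leucine at 30 °C to an OD600 of 0.4, and aliquots were exposed to 30 µM LoaOOH for 45 min. The labels do not name the parent strain, say how the SWI6 alleles are carried or give the number of clones. They do not say that replicates were separate cultures either, so each p-value reflects only how far these samples vary, which may be technical in part.

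Swi6 has no sequence-specific DNA binding of its own and works as the shared subunit of SBF, with Swi4, and MBF, with Mbp1. SBF drives G1 cyclin and cell wall genes, and MBF drives genes of DNA synthesis and repair, so that both tie the start of the cell cycle to cell growth. Oxidative stress delays this step, and the study asked whether the cysteine that C404A removes takes part in that redox control.

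The measured quantity was the log2 signal of 5449 genes, of which 259 lie on chromosome V and 5190 on other nuclear chromosomes. Over these genes the array medians lay between 10.56 and 10.64, and the number of arrays limits the precision. SWI6 mRNA was present in both genotypes, at 10.48, 10.15 and 10.26 in the C404A arrays, against 10.68, 10.29 and 10.65 in the wild type arrays. The 2 groups overlapped, and the difference of -0.24 ± 0.23 (log2 ± SE) did not pass the test (adjusted p = 0.559). Since the mutation does not remove the transcript, SWI6 level does not check the C404A label. The deletant LoaOOH arrays averaged 3.70, below the background level of 4.518. STE2, a receptor gene specific to cells of mating type a, averaged 13.63 ± 0.12 in C404A and 13.66 ± 0.11 in wild type after LoaOOH (SD, n = 3 each). STE3, its counterpart in alpha cells, averaged 7.85 ± 0.17 in C404A and 8.09 ± 0.09 in wild type. Of 7 a-cell and 5 alpha-cell marker genes, 0 passed the test after LoaOOH, beside 3.72% of all genes off chromosome V. Their differences ran from -0.43 to 0.02 and from -0.24 to 0.51. The highest was that of the alpha-cell gene MF(ALPHA)1, 0.51 ± 0.21 (adjusted p = 0.168), which differed by 0.72 in control cells (adjusted p = 0.0477).

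One pair of libraries went against its treatment labels. The response to LoaOOH was taken from the deletant arrays, whose group means enter no difference between C404A and wild type, though they share the model's estimate of the spread. Off chromosome V, 214 genes rose and 305 fell there, 10% of the genes tested, and the mean of the risen genes minus the mean of the fallen genes gave an index for each array. The index was 0.46, -0.30 and 0.50 in the C404A arrays labelled LoaOOH (replicates 1 to 3), against 0.31, 0.54 and 0.24 in the wild type LoaOOH arrays. In the control arrays it was -0.50, -0.01 and -0.37 in C404A and -0.53, -0.54 and -0.51 in wild type. The library labelled C404A LoaOOH replicate 2 therefore differed from its own control by -0.28, against 0.96 and 0.87 in the other 2 C404A pairs. POT1, the thiolase of fatty acid beta-oxidation, shows the same pattern, at 10.05, 8.89 and 9.78 in C404A LoaOOH arrays and 6.93, 9.42 and 6.93 in C404A control arrays. On chromosome V the median difference from the wild type LoaOOH mean was 0.75, 0.71 and 0.67 in the C404A LoaOOH arrays and 0.72, 0.74 and 0.65 in the C404A control arrays, so replicate 2 lay with the others there. Results are given with all arrays and without both C404A replicate 2 arrays.

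**Figure D1:**
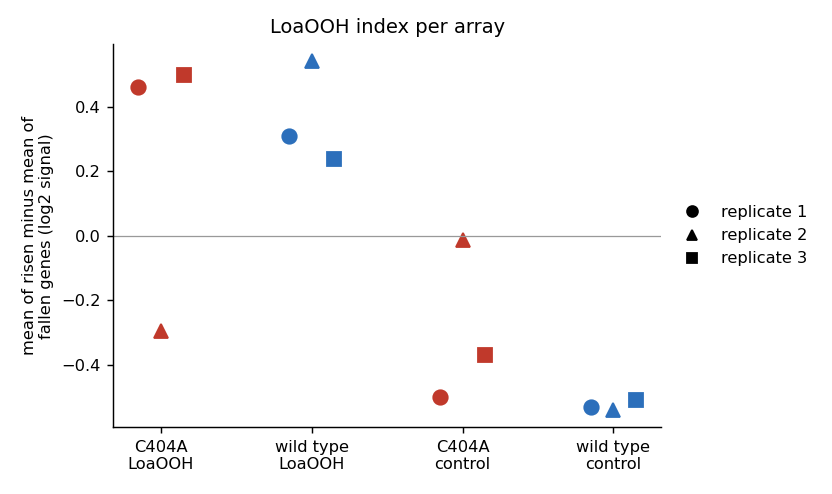
LoaOOH index of the 12 C404A and wild type arrays, as the mean log2 signal of 214 genes that rose minus that of 305 genes that fell in the deletant; marker shapes stand for replicates. The triangle of C404A LoaOOH replicate 2 lies at -0.30, below that of C404A control replicate 2 at -0.01, whereas the other C404A and all wild type LoaOOH arrays lie above every control array.

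C404A cells differed from wild type after LoaOOH in 2 ways. Most genes of chromosome V were higher in C404A, and a smaller set of genes on other chromosomes was higher or lower, mostly by less than 1 log2 unit. A gene was called at an adjusted p below 0.05 (limma, Benjamini-Hochberg over 5449 genes), and 402 genes (7.38%) were. Off chromosome V, 82 genes (1.58%) were higher and 111 (2.14%) lower in C404A, together 193 (3.72%). The Benjamini-Hochberg limit was set over all 5449 genes, and the share of false calls among the 193 may be above 0.05. With chromosome V genes left out of the fit and of the adjustment, 69 genes were called, 29 higher and 40 lower. On chromosome V, 209 of 259 genes (80.7%) were higher and 0 were lower. Without both C404A replicate 2 arrays 389 genes (7.14%) were called. Off chromosome V these were 191 (3.68%), with 67 higher (1.29%) and 124 lower (2.39%), and on chromosome V 198 (76.4%). Of the 193 genes, 100 (51.8%) were called in both fits. All 193 kept their sign, which had to hold in every gene whose 2 groups did not overlap. The 3 C404A arrays did not overlap the 3 wild type arrays in 192 of the 193 genes, nor in 20.5% of all genes off chromosome V and 84.9% of those on it. The size was modest, with 10 of the 193 genes past 1 log2 unit and 150 under 0.5. Fitted 6 times with 1 of the 6 arrays left out each time, 53 of the 193 were called every time. The count off chromosome V was 90 without wild type replicate 1, 105 without wild type replicate 3, 117 without wild type replicate 2, 113 without C404A replicate 3 and 275 without C404A replicate 1.

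PHO84, a gene of phosphate acquisition, had the largest decrease in C404A among called, non-overlapping genes off chromosome V, and PHO5 and PHO11 were among the 5 largest. Yeast cells short of phosphate activate the factor Pho4, which raises the high-affinity transporter gene PHO84 and the secreted acid phosphatase genes PHO5 and PHO11. The kinase Pho85, with its cyclin Pho80, holds Pho4 inactive when phosphate is ample. PHO84 had log2 signals of 8.61, 8.37 and 9.67 in C404A, against 13.07, 11.06 and 11.85 in wild type. Every C404A array lay below every wild type array, by -3.11 ± 0.55 between the means, so that PHO84 was 8.64-fold higher in wild type (adjusted p = 0.00146). Without the replicate 2 arrays the difference was -2.85 (adjusted p = 0.0111), and PHO84 was called in each of the 6 fits without 1 array. The deletant was also below wild type in PHO84 after LoaOOH, by -3.84 (adjusted p = 1.44e-04), against the same wild type arrays.

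The acid phosphatase genes were lower in C404A as well, with one wild type array close to the mutant. PHO5 stood at 8.56, 8.25 and 7.98 in C404A and at 10.04, 8.72 and 10.03 in wild type, a difference of -1.33 ± 0.35 (adjusted p = 0.0292). PHO11 stood at 9.57, 9.91 and 9.50 in C404A and at 11.14, 10.05 and 11.31 in wild type, a difference of -1.17 ± 0.28 (adjusted p = 0.0184). Wild type replicate 2 was the low array in both genes and in PHO84. PHO11 has a near-identical copy, PHO12, whose transcript its probe set may also read. The PHO5 call was lost without C404A replicate 2, C404A replicate 3, wild type replicate 1 or wild type replicate 3 (adjusted p up to 0.130), and the PHO11 call without C404A replicate 3, wild type replicate 1 or wild type replicate 3 (up to 0.0937).

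Of the 18 measured members of the phosphate list off chromosome V, 5 were lower and 1 was higher in C404A. Over all genes off chromosome V, 2.14% were lower and 1.58% higher. The median difference of the 18 members was -0.24, against -0.04 over all genes off chromosome V. Without the replicate 2 arrays 5 were lower and 1 was higher, but PHO5 was no longer among the 5 and PHO3, an acid phosphatase gene, was (-0.74, adjusted p = 0.00411, against -0.48 and 0.125 with all arrays). VTC3 and VTC4 encode subunits of the vacuolar complex that makes polyphosphate. VTC3 was lower by -0.48 ± 0.09 (adjusted p = 0.00275) and VTC4 by -0.26 ± 0.07 (adjusted p = 0.0319). The VTC4 call was lost without C404A replicate 1 or 3 or wild type replicate 1 or 3 (adjusted p up to 0.137). PHO85 was the member that was higher, at 11.85, 11.70 and 11.87 in C404A and 11.49, 11.55 and 11.50 in wild type, a difference of 0.30 ± 0.05 (adjusted p = 0.00235). SPL2, a regulator of low-affinity phosphate uptake, differed by -1.42 ± 0.45 and was not called (adjusted p = 0.0739). PHO89, the sodium-coupled phosphate transporter gene, differed by 0.08 ± 0.70 (adjusted p = 0.968), with an SD of 1.02 in C404A and 1.18 in wild type.

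YHR022C, an uncharacterised gene, had the second largest decrease, with 7.12, 6.75 and 6.45 in C404A against 8.06, 8.60 and 8.79 in wild type (difference -1.71 ± 0.30, adjusted p = 0.00162). HPF1, a cell wall mannoprotein gene, stood at 9.89, 10.55 and 10.25 in C404A and at 11.76, 11.46 and 11.42 in wild type (difference -1.32 ± 0.20, adjusted p = 3.00e-04). HXT1, a low-affinity glucose transporter gene, stood at 11.24, 11.58 and 11.62 in C404A and at 12.63, 12.46 and 12.44 in wild type (-1.03 ± 0.12, adjusted p = 2.08e-05). The groups did not overlap in these 3 genes, and all 3 were called without replicate 2 and in each fit without 1 array. HXT1 belongs to a family of similar sequences, so that other hexose transporter transcripts may contribute to its signal. It was the 1 member called of 16 hexose transporter genes, whose median difference was -0.03, beside 3.72% called over all genes off chromosome V.

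ARG3, the ornithine carbamoyltransferase of arginine synthesis, stood at 9.77, 10.16 and 10.39 in C404A and at 11.55, 11.25 and 11.05 in wild type. Its difference of -1.17 ± 0.17 (adjusted p = 2.07e-04) made it 2.26-fold higher in wild type. It was the 1 gene called of 13 arginine genes off chromosome V, and 0 of the 35 Gcn4 amino acid genes there were called, beside 3.72% of all genes there. TIR3, another cell wall mannoprotein gene, was lower by -0.82 ± 0.15 (adjusted p = 0.00271), and KDX1, a kinase-like gene switched on by cell wall stress, by -0.86 ± 0.13 (adjusted p = 3.00e-04). VMR1, a vacuolar ABC transporter gene, was lower by -0.96 ± 0.16 (adjusted p = 7.98e-04), and HOP1, which encodes a protein of the meiotic chromosome axis, by -0.83 ± 0.18 (adjusted p = 0.00727). These 5 genes were called in every fit without 1 array. YGR109W-B, a Ty3 retrotransposon gene with near-identical copies, was lower by -0.72 ± 0.13 (adjusted p = 0.00146).

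Of 17 mannoprotein genes of the TIR, DAN and HPF group off chromosome V, HPF1 and TIR3 were the 2 called, both lower, and the median was -0.05. Of 21 cell wall integrity genes 2 were called, KDX1 and CWP1, both lower, with a median of -0.18. Both counts stand beside 3.72% called over all genes off chromosome V.

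Some decreases rested on few arrays. FMP48 and YNR014W had their lowest value in C404A replicate 2, at 9.07 and 8.69, and both were called in just 1 of the 6 fits without 1 array, the one without C404A replicate 1. FMP48 had an adjusted p of 0.173 and YNR014W of 0.145 without both replicate 2 arrays. ADH2, the alcohol dehydrogenase gene that glucose represses, stood at 8.07, 8.26 and 8.85 in C404A and at 9.85, 9.21 and 8.89 in wild type. Its highest C404A and lowest wild type arrays were close, and the difference of -0.92 ± 0.25 (adjusted p = 0.0368) was not called without both replicate 2 arrays (adjusted p = 0.113) or without wild type replicate 1 (0.165), wild type replicate 2 or C404A replicate 1.

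**Figure D2:**
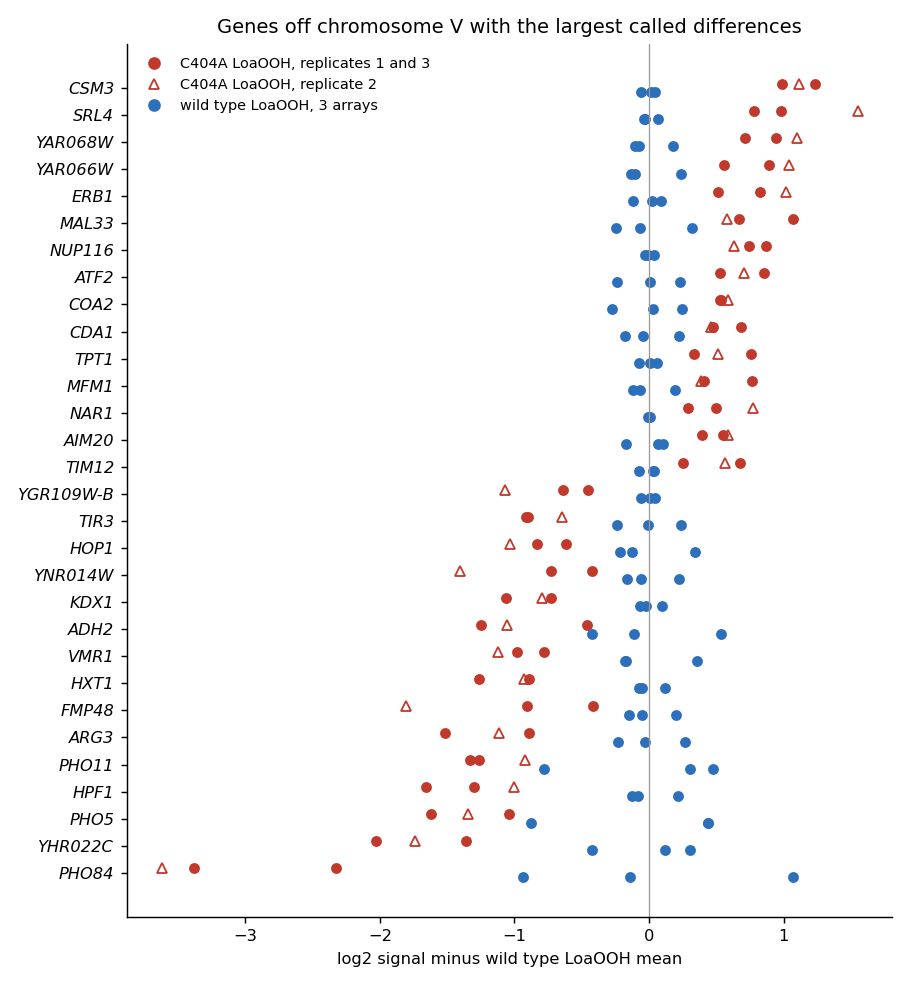
Log2 signal of each LoaOOH array minus the wild type LoaOOH mean (x axis) for the 15 highest and 15 lowest called genes off chromosome V, C404A arrays drawn above wild type arrays in each row and C404A replicate 2 as an open triangle. The 3 C404A arrays lie beyond the 3 wild type arrays in every row, which the choice of genes required, and PHO84 lies farthest, at -3.11 between the means.

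Among the 15 largest increases off chromosome V were 3 neighbouring genes of chromosome XIII. CSM3, which encodes a protein that holds the replication fork at pauses, stood at 10.45, 10.58 and 10.70 in C404A and at 9.41, 9.48 and 9.51 in wild type. The difference was 1.11 ± 0.08, a 2.16-fold higher level in C404A (adjusted p = 3.45e-07). NUP116, a nuclear pore gene, stood at 11.70, 11.47 and 11.58 in C404A and at 10.83, 10.81 and 10.87 in wild type (0.75 ± 0.08, adjusted p = 7.95e-06). ERB1, which acts in assembly of the large ribosomal subunit, stood at 11.75, 12.26 and 12.06 in C404A and at 11.33, 11.12 and 11.26 in wild type (0.79 ± 0.13, adjusted p = 6.90e-04).

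In the R64 annotation NUP116, CSM3 and ERB1 are consecutive among the measured genes. The next measured genes on the 2 sides, IOC4 and FAR3, differed by -0.21 (adjusted p = 0.417) and 0.14 (adjusted p = 0.521). The 3 genes were also higher in C404A than in the deletant after LoaOOH, CSM3 by 1.09 (adjusted p = 1.01e-06), NUP116 by 0.77 (adjusted p = 2.74e-05) and ERB1 by 0.93 (adjusted p = 7.70e-04). In control cells they were 1.19, 0.65 and 0.66 higher in C404A than in wild type.

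Off chromosome V, 7 runs of neighbouring measured genes were called in 1 direction. Besides the 3 genes above they were pairs: YAR066W and YAR068W, CUP1-1 and YHR054C, YLL053C and AQY2, and UBC12 and CDA1 were higher, and ADH2 and UBP15, and PHO91 and YNR014W, were lower in C404A. YAR066W and YAR068W lie on chromosome I. YAR068W stood at 10.02, 10.17 and 9.78 in C404A and at 8.99, 8.97 and 9.25 in wild type (0.92 ± 0.11, adjusted p = 3.81e-05), and YAR066W differed by 0.83 ± 0.18 (adjusted p = 0.00920). Both were also above the deletant, by 1.41 (adjusted p = 1.57e-06) and 1.19 (adjusted p = 0.00223). YAR066W resembles other subtelomeric genes in sequence, so its signal may be shared. PHO11 is the next measured gene beyond YAR068W and went in the other direction.

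SRL4, named as a suppressor of rad53 lethality, stood at 8.33, 8.90 and 8.13 in C404A and at 7.32, 7.32 and 7.42 in wild type (1.10 ± 0.21, adjusted p = 0.00334). MAL33, an activator of maltose genes, was higher by 0.77 ± 0.16 (adjusted p = 0.00482) and ATF2, an alcohol acetyltransferase gene, by 0.70 ± 0.14 (adjusted p = 0.00529). NAR1 and ISU2, which act in iron-sulphur cluster assembly, were higher by 0.52 ± 0.11 (adjusted p = 0.00536) and 0.49 ± 0.10 (adjusted p = 0.00471). CDA1, a spore wall chitin deacetylase gene, was higher by 0.54 ± 0.11 (adjusted p = 0.00482). These 6 genes were called without the replicate 2 arrays and in every fit without 1 array. COA2, TPT1 and AIM20, at 0.55, 0.54 and 0.51, were not called without both replicate 2 arrays (adjusted p = 0.0640, 0.0890 and 0.0759). All 3 calls were also lost without C404A replicate 3 or wild type replicate 1, those of COA2 and TPT1 without wild type replicate 3, and that of TPT1 without wild type replicate 2 (adjusted p up to 0.101 for COA2, 0.176 for TPT1 and 0.101 for AIM20).

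Among the targets of Swi6 itself, most were not called. Of 32 measured SBF targets off chromosome V, 1 was higher and 2 were lower in C404A, with a median difference of -0.01. Of 41 MBF targets, 1 was higher and 3 were lower, with a median of -0.15, and 34 of the 41 had a negative difference, against 59.8% of all genes off chromosome V. The 3 called of 32 and 4 of 41 stand beside 3.72% called over all genes off chromosome V. Without the replicate 2 arrays the MBF counts were 1 higher and 6 lower, with a median of -0.21, and the SBF counts 0 higher and 1 lower, with a median of -0.03, beside 3.68% called over all genes off chromosome V. TOS8, a homeodomain factor gene and SBF target, stood at 9.14, 8.92 and 8.75 in C404A and at 9.59, 9.73 and 9.63 in wild type (-0.71 ± 0.13, adjusted p = 0.00220). POL1, the catalytic subunit of DNA polymerase alpha and an MBF target, stood at 10.94, 11.13 and 10.92 in C404A and at 11.26, 11.39 and 11.44 in wild type (-0.36 ± 0.06, adjusted p = 0.00113). The groups were apart in both genes, and both were called without replicate 2 and in each fit without 1 array. CSM3, described above, is the MBF target that was higher.

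RAD53, the checkpoint kinase gene, was lower by -0.43 ± 0.11 (adjusted p = 0.0247), and POL2, the catalytic subunit of DNA polymerase epsilon, by -0.32 ± 0.08 (adjusted p = 0.0330). PCL1, a G1 cyclin gene for Pho85, was higher by 0.47 ± 0.13 (adjusted p = 0.0384), and CWP1, a cell wall mannoprotein gene on the SBF list, was lower by -0.59 ± 0.16 (adjusted p = 0.0385). None of these 4 genes was called in every fit without 1 array. Without both replicate 2 arrays RAD53 was called (adjusted p = 0.0291), and PCL1 (0.0582), POL2 (0.0533) and CWP1 (0.146) were not. All 4 calls were also lost without wild type replicate 2, those of PCL1, POL2 and RAD53 without C404A replicate 3 or wild type replicate 1, those of POL2, RAD53 and CWP1 without wild type replicate 3, and that of CWP1 without C404A replicate 1. The adjusted p in these fits reached 0.161 for PCL1, 0.140 for POL2, 0.111 for RAD53 and 0.136 for CWP1.

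The G1 cyclin genes CLN1, CLN2 and CLN3 differed by 0.28 ± 0.09 (adjusted p = 0.0861), 0.16 ± 0.10 (0.356) and -0.22 ± 0.11 (0.250). WHI5, the repressor of SBF, differed by -0.32 ± 0.18 (adjusted p = 0.311) and MBP1 by -0.14 ± 0.10 (0.472), and neither was called. HO, the mating type endonuclease gene and a classic SBF target, stood at 10.98, 11.25 and 10.74 in C404A and at 10.58, 11.02 and 11.17 in wild type. The groups overlapped, with a difference of 0.07 ± 0.18 (adjusted p = 0.859). Some G1 genes differed between the 2 mutants and others did not pass. HO was 2.18 higher in C404A than in the deletant after LoaOOH (adjusted p = 1.93e-06), the S-phase cyclin gene CLB6 1.85 (adjusted p = 1.01e-06), the cell wall gene SVS1 2.35 (adjusted p = 1.40e-09) and the cell wall gene TOS6 6.06 (adjusted p = 2.51e-12). CLN1 and CLN2 differed from the deletant by 0.19 (adjusted p = 0.410) and 0.22 (0.373), and CDC21, the thymidylate synthase gene, was lower in C404A than in the deletant by -0.45 (adjusted p = 0.0191). Against wild type, CLB6, SVS1 and TOS6 differed in C404A by -0.07 ± 0.14, 0.11 ± 0.10 and -0.08 ± 0.16, with adjusted p of 0.802, 0.560 and 0.819. Over all genes, C404A differed from the deletant after LoaOOH in 79 (1.45%), 36 higher and 43 lower, and 12 of the 193 genes called against wild type off chromosome V were among them. The 79 became 50, 50 and 45 without deletant replicate 1, 2 or 3.

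SWI4 and RNR1 lie on chromosome V, whose genes were higher as a group. SWI4, the DNA-binding subunit of SBF, stood at 10.12, 10.02 and 9.54 in C404A and at 8.94, 9.24 and 9.20 in wild type (0.77 ± 0.16, adjusted p = 0.00727). RNR1, the large subunit of ribonucleotide reductase, was higher by 0.57 ± 0.11 (adjusted p = 0.00235) and BCK2, an activator of G1 transcription, by 0.52 ± 0.12 (adjusted p = 0.0160). The BCK2 call was lost without C404A replicate 1 or wild type replicate 2 or 3 (adjusted p up to 0.0797). Relative to the median shift of chromosome V, SWI4 differed by 0.05 (adjusted p = 0.896), RNR1 by -0.15 (0.456) and BCK2 by -0.19 (0.400).

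Genes of the oxidative stress response showed few calls. Of 30 Yap1 antioxidant genes, 28 Msn2/Msn4 stress genes, 22 Hsf1 chaperone genes, 11 pentose phosphate genes, 19 genes of peroxisomal beta-oxidation and 30 proteasome genes off chromosome V, 0 were called with all arrays. The share called over all genes off chromosome V was 3.72%, at which lists of this size would hold few calls. The medians of these lists were -0.01, -0.26, -0.01, -0.25, -0.07 and -0.07. Without the replicate 2 arrays the Msn2/Msn4 median was -0.09 and the pentose phosphate median -0.05. Single members varied widely without passing, such as GRE1 at -1.31 and OYE3, an NADPH oxidoreductase gene, at 0.78. The SE of the 19 beta-oxidation genes ran from 0.08 to 0.54 (POT1), against a median of 0.102 over all genes. The absence of calls in these lists therefore does not show equal levels. Without replicate 2, the chaperone gene HSP78 (0.48), the cytochrome c peroxidase gene CCP1 (0.62) and the peroxisomal thioesterase gene TES1 (0.47) were higher, and the peroxidase gene HYR1 (-0.41) and the glutathione transferase gene GTT1 (-0.37) were lower in C404A and called. That fit called 3.68% of all genes off chromosome V.

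The 305 genes that fell with LoaOOH in the deletant differed in their counts between the 2 fits. With all arrays 8 of them were higher and 1 was lower in C404A after LoaOOH, beside 1.58% and 2.14% of all genes off chromosome V. The median difference of the 305 genes was -0.03. Without the replicate 2 arrays 6 were higher and 35 (11.5%) lower, with a median of -0.15, beside 2.39% lower and a median of -0.04 over all genes off chromosome V. In control cells, again without replicate 2, the median of the same 305 genes was -0.16. The 214 genes that rose had medians of -0.12 with all arrays and -0.02 without replicate 2. Of 52 ribosome biogenesis genes off chromosome V, 1 (ERB1) was called with all arrays, with a median of -0.04, whereas without replicate 2 there were 4 lower and 1 higher, with a median of -0.21. Of 122 cytosolic ribosomal protein genes off chromosome V, 0 were called with all arrays. The share called over all genes off chromosome V was 3.72% with all arrays and 3.68% without replicate 2.

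Of the 36 lists examined, 21 had 0 members called off chromosome V. The counts below stand beside 3.72% called over all genes off chromosome V. Of 17 DNA damage genes off chromosome V, RAD16, a nucleotide excision repair gene, was the 1 called, lower by -0.44 ± 0.10 (adjusted p = 0.0153). It was not called without both replicate 2 arrays (adjusted p = 0.0764) or without C404A replicate 2 or wild type replicate 1 alone (up to 0.0813). Among the remaining nutrient lists, MEP1, an ammonium permease gene, was lower by -0.54 ± 0.12 (adjusted p = 0.00784) and DAL1, the allantoinase gene, by -0.43 ± 0.09 (adjusted p = 0.00828). These were the 2 genes called of 24 under nitrogen catabolite repression, and both were called without replicate 2. IMD2, an IMP dehydrogenase gene of guanine nucleotide synthesis with close paralogues, was lower by -0.48 ± 0.12 (adjusted p = 0.0277). That call was lost without C404A replicate 1 or wild type replicate 1 or 3 (adjusted p up to 0.10). In the iron list of 29 genes, ISU2 was higher and CCC2, the copper transporter that loads the iron oxidase, was lower by -0.34 ± 0.08 (adjusted p = 0.0191). CCC2 was not called without C404A replicate 2 or wild type replicate 2 (adjusted p up to 0.0959).

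On chromosome V, 252 of 259 genes (97.3%) were higher in C404A than in wild type after LoaOOH, with a median difference of 0.72, or 1.64-fold. The quartiles were 0.53 and 0.87, beside -0.15 and 0.07 for the genes of all other chromosomes. The medians of the other 15 chromosomes ran from -0.05 to -0.02. Relative to other chromosomes, the level of chromosome V per array, each gene taken against its mean over all arrays, was 0.23, 0.24 and 0.20 in C404A and -0.50, -0.50 and -0.49 in wild type. The groups did not overlap, and the exact two-sided permutation test gave p = 0.1, the smallest that 3 against 3 arrays allow. Without the C404A replicate 2 arrays the median was 0.71. Of the 291 genes called higher in C404A over the genome, 71.8% lie on chromosome V.

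The difference ran along the whole chromosome. In 10 bins of consecutive measured genes the medians ran from 0.56, in the bin of the left end, to 0.78. In 4 classes of chromosome V genes by signal level, the medians from low to high were 0.73, 0.82, 0.71 and 0.51. C404A and the deletant, compared directly after LoaOOH, differed on chromosome V by a median of -0.05, with 3 genes higher and 1 lower. A change in gene copies and a change in transcription per copy cannot be told apart from RNA levels.

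**Figure D3:**
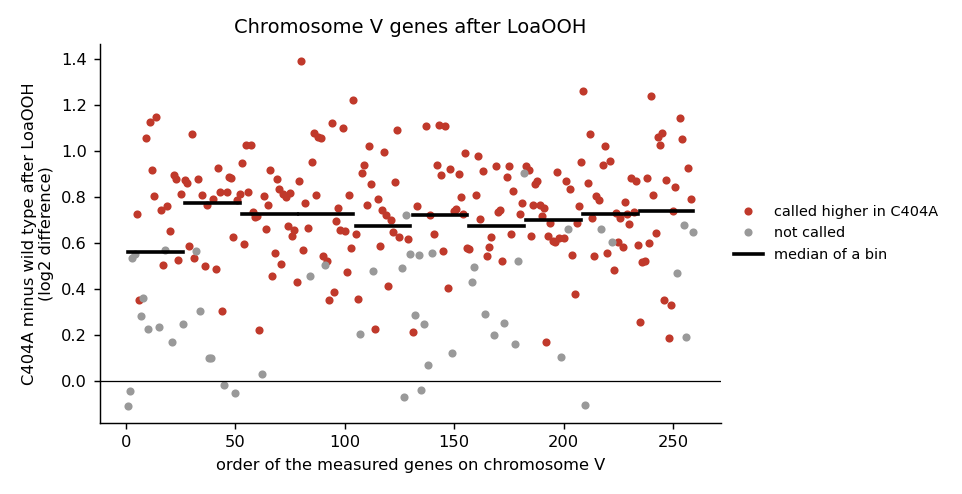
Log2 difference, C404A minus wild type after LoaOOH, of the 259 measured genes of chromosome V in their order along the chromosome, each point a gene and each black line the median of 1 of 10 bins. All bin medians lie between 0.56 and 0.78, and the genes near 0 are scattered along the chromosome.

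Single genes of chromosome V spread around that median. TIR1, a cell wall mannoprotein gene, stood at 10.44, 10.68 and 10.41 in C404A and at 8.89, 9.07 and 9.40 in wild type (1.39 ± 0.19, adjusted p = 1.20e-04). ADK2, the mitochondrial adenylate kinase gene, stood at 10.51, 10.45 and 10.42 in C404A and at 8.93, 9.34 and 9.39 in wild type (1.24 ± 0.13, adjusted p = 6.45e-06). CIN8, a kinesin gene of the mitotic spindle, was higher by 1.15 ± 0.13 (adjusted p = 1.35e-05). TIR1 was also 0.91 higher than in the deletant after LoaOOH (adjusted p = 0.0239), though not without the replicate 2 arrays (adjusted p = 0.0882), whereas ADK2 and CIN8 differed from the deletant by 0.16 and 0.04 (adjusted p = 0.595 and 0.906).

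At the other end, YEL076C-A, YER138W-A and YER053C-A had differences of -0.10, -0.10 and -0.07, and none passed the test (adjusted p = 0.726, 0.527 and 0.910). The 6 cytosolic ribosomal protein genes of chromosome V had differences of 0.12 to 0.38, and 3 of them were called. RPS26B (0.38) was called in every fit without 1 array. RPL34A (0.21) was not called without C404A replicate 2 or without any 1 of the wild type arrays (adjusted p up to 0.0705), and RPL23B (0.17) in none of these fits (up to 0.157). Without both replicate 2 arrays neither was called (adjusted p = 0.0825 for RPL34A and 0.0992 for RPL23B). Their paralogues on other chromosomes are nearly identical in sequence, and their probe sets may read both. With the median shift of chromosome V removed, 16 genes there were called higher and 35 lower, and the 35 included all 6 ribosomal protein genes. RPS8B, for instance, stood at 14.71, 14.75 and 14.69 in C404A and at 14.53, 14.55 and 14.58 in wild type, close to the top of the signal range. Signals in that range may be compressed, which was not tested.

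The same genotype comparison in untreated cells gave similar values. In control cells 449 genes (8.24%) were called. Off chromosome V these were 237 (4.57%), 94 higher (1.81%) and 143 lower (2.76%) in C404A, and on chromosome V 212, all higher (81.9%). Without both C404A replicate 2 arrays the count off chromosome V was 203. Without C404A control replicate 2 alone it was 139, without C404A control replicate 3 it was 77, and without wild type control replicate 1, 2 or 3 it was 82, 140 or 105. The 102 genes called off chromosome V in both conditions were 52.8% of the calls after LoaOOH and 43.0% of those in control cells, and all 193 genes called after LoaOOH had the same sign in control cells. Across the 5190 genes off chromosome V the differences in the 2 conditions had r = 0.78, and r = 0.86 across those on it. Without both C404A replicate 2 arrays r was 0.77 off chromosome V. Genes are not independent replicates, and though no array is shared, the LoaOOH and control aliquots of a replicate may come from the same culture. PHO84 differed by -2.97 in control cells (adjusted p = 0.00216), HPF1 by -1.26 (4.72e-04), HXT1 by -1.04 (1.85e-05) and ARG3 by -1.19 (1.92e-04).

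Some genes were called after LoaOOH and not in control cells, such as YHR022C at -1.71 and -0.93, ATF2 at 0.70 and 0.43, ISU2 at 0.49 and 0.28 and NAR1 at 0.52 and 0.30. The difference between the 2 conditions was tested directly and was called for 0 genes by limma, with 33 genes at an unadjusted p below 0.05. For YHR022C it was -0.78 ± 0.43 (adjusted p = 1.00). With control and LoaOOH arrays of the same number taken as pairs within a genotype, the count stayed at 0, with 147 genes at an unadjusted p below 0.05. Without both C404A replicate 2 arrays the count was 0 as well, unpaired or paired. In those fits 49 genes (unpaired) and 165 genes (paired) had an unadjusted p below 0.05. A share of 0.05 of the 5449 genes would lie there if no gene differed and the model held. All of these counts were below that share. With all arrays and no pairs, the median SE of this difference of differences was 0.144, against 0.102 for the comparison after LoaOOH.

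**Figure D4:**
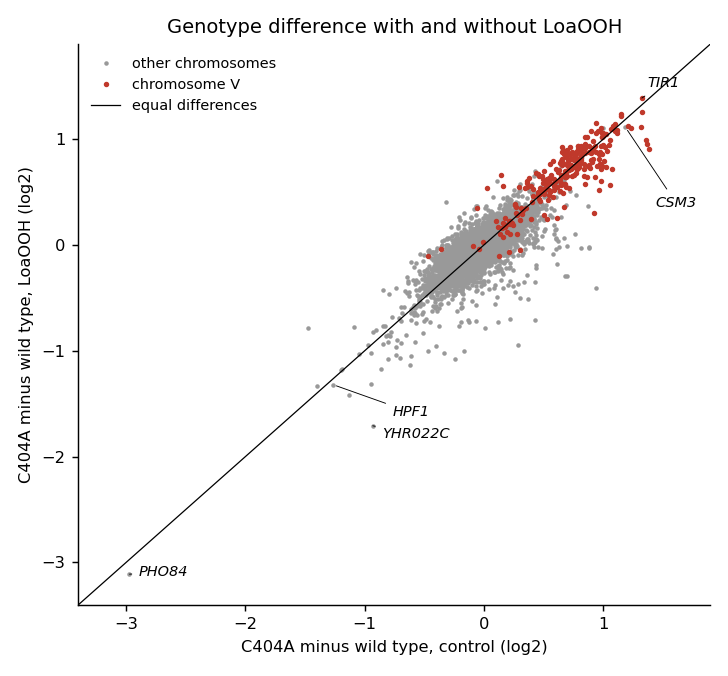
Log2 difference, C404A minus wild type, after LoaOOH (y axis) and in control cells (x axis) for 5449 genes, with chromosome V genes in red and the line of equal differences. Chromosome V genes lie to the upper right of the others, with medians of 0.72 after LoaOOH and 0.70 in control cells, and PHO84 lies near the line at -3.11 and -2.97.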

How the data were processed

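Total RNA (6 µg per sample) was labelled with biotin and hybridised to Affymetrix yeast arrays, 1 per sample. The deposited log2 signals come from the tools PLIER and Affymetrix Expression Console, as the submitters' processing notes name them. Their versions and settings, and whether arrays were normalized to each other, are not stated. The log2 scale was read from the range of values, 2.47 to 15.0.

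Probe sets were named from the platform annotation and R64 gene names. Of 10928, 5498 matched 1 yeast gene, 1746 another organism, 1 several genes and 213 were controls, while 3470 others are not named. For 47 genes with several probe sets 1 was chosen, one without a suffix letter first and then the one with the highest mean. The 95th percentile of the other organism's probe sets, 4.518, served as background, and 58 genes averaged below it.

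One model with 6 group means was fitted to all 18 arrays (limma 3.58.1, R 4.3.3), with two-sided moderated statistics and Benjamini-Hochberg adjustment over 5449 genes at 0.05. The model was also run on simulated data with independent noise in each array, which cannot show how it does with correlated arrays. The values were used as deposited. The genes named were the 15 highest and 15 lowest called and non-overlapping genes off chromosome V, the 6 highest and 3 lowest on it, the G1 regulators, and called list members. POT1, GRE1, OYE3, HSP78, HYR1, GTT1, CCP1, TES1, PHO3, SPL2, PHO89, RPS8B, RPS26B, RPL34A, RPL23B, IOC4 and FAR3 were added after their values were seen. The members, lists and tests were chosen with earlier results of these data known. Lists were described by counts and medians, with no test.

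The sample descriptions start with CT for replicates 1 and 2 and with JC for replicate 3, and the meaning is not given. Deviations from group means were correlated between same-numbered control and LoaOOH arrays. In C404A the values were 0.12, 0.18 and 0.60, and in wild type 0.86, 0.50 and 0.64. These arrays were treated as pairs in an alternative fit of the difference between conditions. The main fit counted them as independent, so its p-values may be too low. With only the 6 LoaOOH arrays, where no such pairs enter, 25 genes off chromosome V were called, against 193. That fit also held fewer arrays. Sequences were not used here.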

Additional observations from a re-analysis of the deposited data

How the results depend on the processing

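The number of genes called between C404A and wild type after LoaOOH off chromosome V, 193, was 25 when only the 6 arrays compared were fitted, 85 with CT arrays only, 122 with CT or JC as a factor, 69 with chromosome V genes left out, and 111 with the chromosome V shift removed. It lay between 90 and 275 with 1 array left out, and at 194 to 209 with quantile normalization, dim genes left out, a mean-variance trend or averaged probe sets. On chromosome V the count of 209 was 51 with the shift removed. The chromosome V median of 0.72 was 0.74 with CT arrays, 0 by construction with the shift removed, and 0.68 to 0.73 with 1 array left out. In control cells the 237 calls off chromosome V became 72 with CT arrays, 157 with the factor and 94 without chromosome V genes. They became 134 with the shift removed and 77 to 278 with 1 C404A or wild type control array left out. The 79 calls against the deletant became 26 with CT arrays and 45 to 77 with 1 C404A or deletant LoaOOH array left out. RNR1 and BCK2 turned to -0.15 and -0.19 with the shift removed. All 46 called genes named off chromosome V had the same sign in CT arrays and in the JC pair. This had to hold in every gene whose 2 groups did not overlap, so it is no check across the prefixes. Of the 46 genes, 19 were called in CT arrays. The cause of the changed counts was not tested, and several of these fits held fewer arrays or fewer genes. Leaving out the chromosome V genes kept the median difference off chromosome V at -0.04 and the median SE at 0.102. What changed was the set of genes over which p was adjusted. Of the 46 genes, 18 were not called in that limma fit (adjusted p of 0.052 to 0.098). They were PHO5, PHO11, ADH2, FMP48, YNR014W, COA2, TPT1, AIM20, MFM1, PCL1, CWP1, POL2, RAD53, KIN3, CCC2, VTC4, IMD2 and RAD16.

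Same-numbered C404A and wild type LoaOOH arrays share a replicate number and a CT or JC prefix, and nothing in the labels ties them to 1 culture or day. Their deviations correlated at 0.01, -0.07 and -0.65. With the replicate block, 18 arrays gave 181 calls off chromosome V and 209 on it, and the 6 LoaOOH arrays gave 2 and 47. The block within genotype gave 0 calls for the difference between conditions.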
